A study of Mus musculus with 48 samples.

Results

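The genes described here are 48 mouse genes of the DNA replication machinery, chosen by name and looked up by gene ID without its version in the 3 deposited count tables, each of which lists 54752 genes. All 48 were in all 3 tables, and 47 passed the filter on low counts in each. They were sorted by role into 6 licensing genes, 12 helicase genes, 2 firing kinase genes, 9 polymerase and primase genes, 11 genes of the sliding clamp, its loader, single-strand binding and flap ligation, 4 nucleotide supply genes and 4 genes of chromatin assembly and fork protection. The rule itself used no measured value, but the members and their roles were chosen with earlier results of these data known.

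A replication origin is licensed in G1 when the origin recognition complex, CDC6 and CDT1 load the MCM helicase ring onto DNA. The kinase CDC7 with its partner DBF4, together with cyclin-dependent kinases, then lets CDC45 and the GINS complex join the ring, and the active helicase opens DNA for the polymerases. Many of these genes are transcribed in waves governed by the E2F factors, and mouse embryonic stem cells (ESCs), which divide fast with a short G1, transcribe them at high levels.

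Newly made RNA was measured by a short pulse of 4-thiouridine (4SU), a uridine analogue that enters transcripts while they are made, for 30 min in cycling cells and 15 min in synchronized cells. All cells were mouse ESCs in L2i medium, and each of the 24 groups holds 2 libraries. FOXD3-iKO cells, in which the gene of the forkhead factor FOXD3 can be deleted on demand, were treated with 4-hydroxytamoxifen (4HT) or its solvent ethanol for 8, 14, 24 or 32 h, and the ethanol cells carry the same inducible allele. OCT4-tetOff cells, in which doxycycline (DOX) shuts off the pluripotency factor OCT4, were treated with DOX or water for 16 or 24 h. FOXD3-iKO cells were also held by a double thymidine block, which stops cells at the start of DNA synthesis, and released 24 h after 4HT or ethanol, with samples at 0, 1, 2, 3, 4 and 5 h. What drives the recombinase, and how many clones were used, the labels do not give.

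Libraries held 21827951 to 30406124 counts in the cycling FOXD3-iKO table, 21113158 to 26112435 in the OCT4-tetOff table and 7953841 to 17936504 in the synchronized table. Values below are CPM (counts scaled to a common library size) after TMM scaling, and a gene was called where edgeR's adjusted p over all genes was under 0.05. Foxd3 stood at -1.33 at 8 h of 4HT (edgeR adjusted p = 0.386) and at -1.49 at 14 h (adjusted p = 0.145), and neither passed. Foxd3 fell by 1.46 ± 0.24 (SE) on the log2 scale at 24 h of 4HT and by 1.63 ± 0.28 at 32 h, and Pou5f1, which encodes OCT4, fell by 1.83 ± 0.13 at 24 h of DOX. At 16 h Pou5f1 averaged 79.2 ± 0.571 CPM with DOX and 223 ± 3.66 CPM with water (SD, n = 2 each). Of 5 ESC markers 4 were detected in every group and Sox2 was listed at 0. The summed level of the 6 fibroblast markers was 3.49 to 27.4 CPM per group, against 738 to 2685 CPM for the ESC markers. Separate cultures are not stated for the replicates, so each p-value reflects only how far these samples spread, and that spread may be technical.

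Promoter sequences were examined for the binding motif of E2F factors, since the tests below ask how replication genes move together. RefSeq promoter windows (GRCm38.p6, the same assembly as mm10), from 250 bases before to 50 after an annotated start, were found for 39 of the 48 genes, as 46 windows. Gins1, Gins2, Gins4, Tipin, Pole, Prim2, Gmnn, Rfc2 and Mcm4 had none. The letters TTTCCCGC or TTTGGCGC, searched on both strands, occurred in 12 of the 46 windows (26.1%), against 514 of all 32851 windows (1.56%) and 419 of 15851 windows of genes tested in the OCT4-tetOff table (2.64%). The CCAAT letters, bound by NF-Y in many cell cycle promoters, occurred in 54.3% of the 46 windows and 37.4% of all windows. In the windows of tested genes they occurred in 37.4% as well. TTTGAA, the core of the element bound by the DREAM complex in late cell cycle genes, occurred in 17.4% of the 46 windows and 17.9% of all windows. In the windows of tested genes TTTGAA occurred in 12.6%. The helicase genes held the E2F-type letters in 5 of 8 genes with a window, the polymerase and primase genes in 4 of 7, the licensing genes in 2 of 5, and the nucleotide supply genes in 0 of 4.

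The 4 promoters printed first show where the E2F-type letters lie in a helicase gene with both forms, a helicase gene with 1 form repeated, a polymerase gene and a licensing gene. The last, of the clamp loader gene Rfc1, holds neither form and belongs to a gene that did not pass the test in either cycling experiment. The first 4 come from the 5 genes with 1 window and a match that had the smallest edgeR p at 24 h of DOX. Rfc1 was printed as the gene with 1 window and the largest p there. Chosen by outcome, the printed genes do not compare promoters with and without the letters. Capitals mark the E2F-type letters, given 5′ to 3′ along the gene's strand. Mcm3 lies at chr1:20820263-20820562 on the minus strand, Mcm6 at chr1:128359656-128359955 on the minus strand, Pold1 at chr7:44548766-44549065 on the minus strand, Cdc6 at chr11:98907901-98908200 on the plus strand and Rfc1 at chr5:65335590-65335889 on the minus strand.
Mcm3: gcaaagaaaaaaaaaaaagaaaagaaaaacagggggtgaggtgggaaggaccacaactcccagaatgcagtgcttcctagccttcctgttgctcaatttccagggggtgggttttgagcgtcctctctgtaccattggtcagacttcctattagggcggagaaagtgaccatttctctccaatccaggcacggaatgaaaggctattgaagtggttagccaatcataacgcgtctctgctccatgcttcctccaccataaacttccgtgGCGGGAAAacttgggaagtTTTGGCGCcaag
Mcm6: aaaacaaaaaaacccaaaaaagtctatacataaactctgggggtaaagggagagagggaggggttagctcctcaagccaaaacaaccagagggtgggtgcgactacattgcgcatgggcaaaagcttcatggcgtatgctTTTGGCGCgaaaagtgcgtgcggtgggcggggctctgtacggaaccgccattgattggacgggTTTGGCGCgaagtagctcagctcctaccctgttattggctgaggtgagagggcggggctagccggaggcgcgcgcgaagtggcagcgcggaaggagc
Pold1: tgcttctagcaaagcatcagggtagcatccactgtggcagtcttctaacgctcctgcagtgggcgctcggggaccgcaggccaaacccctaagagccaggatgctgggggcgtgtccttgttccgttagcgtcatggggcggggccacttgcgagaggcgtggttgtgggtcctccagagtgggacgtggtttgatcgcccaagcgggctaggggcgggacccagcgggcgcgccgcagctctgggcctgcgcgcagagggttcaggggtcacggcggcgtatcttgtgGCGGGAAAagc
Cdc6: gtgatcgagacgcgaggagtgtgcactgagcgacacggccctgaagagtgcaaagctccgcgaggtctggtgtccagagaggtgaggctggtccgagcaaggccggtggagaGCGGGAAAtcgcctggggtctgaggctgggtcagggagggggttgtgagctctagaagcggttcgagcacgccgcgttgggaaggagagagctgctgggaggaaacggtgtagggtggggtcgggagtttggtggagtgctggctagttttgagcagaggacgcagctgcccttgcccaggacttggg
Rfc1: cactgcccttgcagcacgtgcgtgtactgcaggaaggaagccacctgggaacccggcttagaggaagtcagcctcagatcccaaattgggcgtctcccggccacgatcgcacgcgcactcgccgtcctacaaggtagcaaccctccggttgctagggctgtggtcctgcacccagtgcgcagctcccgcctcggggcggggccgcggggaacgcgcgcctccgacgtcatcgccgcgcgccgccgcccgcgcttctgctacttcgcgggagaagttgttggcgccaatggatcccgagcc
Counted from the annotated start as 0, the first letter of the match lay at 19 and 38 in Mcm3, at -110 and -47 in Mcm6, at 39 in Pold1 and at -138 in Cdc6. A match is a run of letters and not a measured binding site.

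1 member could not be measured. Cdt1 (chromosome 8, 122568015 to 122573554, plus strand, mm10), whose protein loads the MCM ring, lies wholly within the annotated gene Gm20388 on the same strand and was listed at 0 in every library. Gins2 and Tk1 lie wholly within genes annotated on the other strand, Gm20388 and Gm20708, and held 10326 and 23841 counts over the cycling FOXD3-iKO libraries. Fen1 shares 64.6% of its length and Orc1 63.3% with genes on the other strand. The labels give no strand setting for the counting. Cdt1, on the strand of Gm20388, was listed at 0, while Gins2, on the other strand of the same Gm20388, held counts. Overlaps on the same strand and on the other strand were thus not counted alike. Whether any reads of these 4 genes were mixed with those of their neighbours was not tested.

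Levels per length differed widely between members. In water-treated OCT4-tetOff cells at 24 h, Pcna, the gene of the sliding clamp, had the highest level at 28.7 CPM per kilobase of gene, followed by Rrm2, the small subunit of ribonucleotide reductase, at 21.7 and the helicase gene Mcm7 at 19.4. The lowest among the genes counted were Prim2 at 0.774, Pola1 at 1.37 and Rfc1 at 1.59. Introns are part of the counted interval, and these 3 are among the longest members, at 215986, 327389 and 73821 bases. Within the MCM ring, whose subunits are used in equal numbers, levels per length in these cells ran from 6.09 for Mcm6 and 8.08 for Mcm2 to 12.2 for Mcm3 and 19.4 for Mcm7. Mcm6 is the longest of the ring genes at 28075 bases and Mcm7 the shortest at 7840, while Mcm2 (15307 bases) is shorter than Mcm3 (17345 bases). The part of gene length in this range was not tested.

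**Figure D1:**
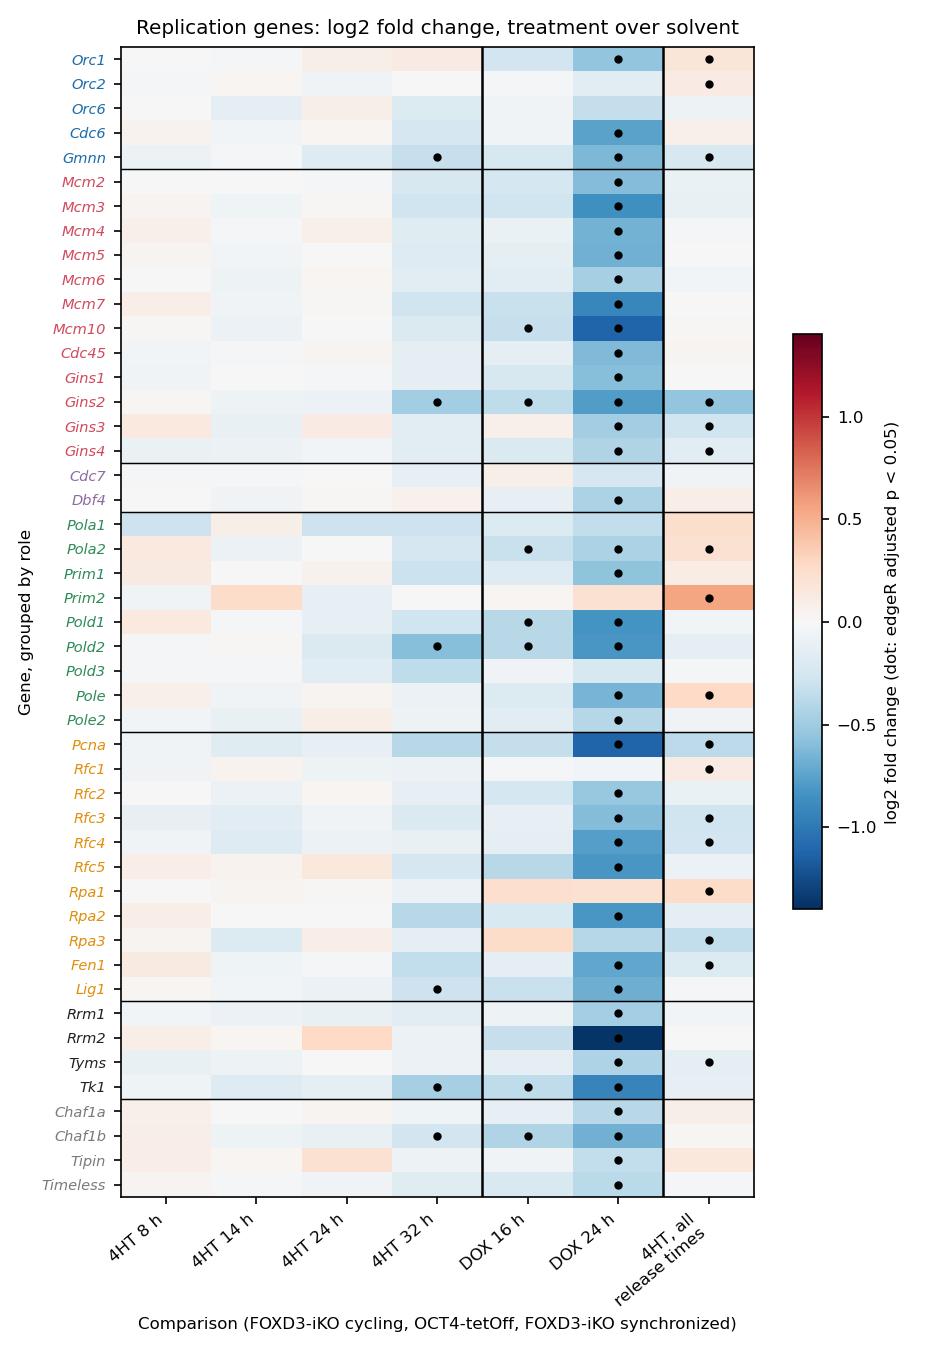
Log2 fold change (colour, treatment over solvent) of the 47 tested replication genes, in rows grouped and coloured by role, in the 4 cycling FOXD3-iKO comparisons, the 2 OCT4-tetOff comparisons and the effect of 4HT over all release times. Dots mark genes called by edgeR; the column of DOX 24 h holds 38 dots, all on genes that fell.

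After 24 h of DOX the replication genes fell as a group. Of the 47 tested 38 fell and 0 rose, where 18.7% of all 17713 genes tested fell and 18.1% rose, and the median log2 fold change was -0.60, against -0.01 over all genes. In 41 of the 47 both DOX libraries lay below both water libraries, which held for 32.8% of all genes. All 12 helicase genes fell, as did all 4 nucleotide supply genes and all 4 genes of chromatin assembly and fork protection. In bulk RNA, fewer cells transcribing a gene and less transcription per cell cannot be told apart.

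The nucleotide supply genes held the largest fall of any member. Rrm2 (chromosome 12, 24708241 to 24714146, plus strand), whose product makes deoxyribonucleotides, had 57.5 and 41.9 CPM with DOX against 139.5 and 117 CPM with water at 24 h, a log2 change of -1.37 ± 0.16 (SE, edgeR adjusted p = 0.0002). Tk1 (chromosome 11, 117815526 to 117826092, minus strand), the salvage thymidine kinase, had 26.3 and 24.3 CPM against 48.9 and 47.8 CPM, a change of -0.93 ± 0.10 (edgeR adjusted p = 9.6e-05). Neither gene's groups overlapped. Rrm1, the large reductase subunit, fell by 0.48 ± 0.10 and Tyms, the thymidylate synthase, by 0.44 ± 0.09 on the log2 scale. The subunits of one enzyme stood at -1.37 and -0.48, and this difference was not tested. The median of the 4 genes was -0.70.

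Among the 12 helicase genes the median was -0.64, with a range from -1.12 for Mcm10 to -0.42 for Gins4. Mcm10 (chromosome 2, 4989714 to 5012791, minus strand), which helps the helicase to start, had 70.8 and 65.0 CPM with DOX against 147 and 148 CPM with water, a log2 change of -1.12 ± 0.10 (edgeR adjusted p = 2.9e-05). The replicates of each group differed by far less than the groups. Of the MCM ring, Mcm7 (chromosome 5, 138164583 to 138172422, minus strand) had 89.4 and 71.9 CPM against 170.7 and 133.5 CPM, a change of -0.91 ± 0.14 (edgeR adjusted p = 0.0012). Mcm3 fell by 0.85 ± 0.13, Mcm5 by 0.67 ± 0.10, Mcm4 by 0.66 ± 0.13, Mcm2 by 0.60 ± 0.12 and Mcm6 by 0.46 ± 0.09. Mcm7 hosts 3 microRNA genes, Mir25, Mir93 and Mir106b, which were listed at 0 in the cycling FOXD3-iKO table. Of the factors that join the ring, Gins2 fell by 0.78 ± 0.11, Cdc45 by 0.61 ± 0.09, Gins1 by 0.60 ± 0.09, Gins3 by 0.49 ± 0.15 and Gins4 by 0.42 ± 0.10.

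Of the 5 licensing genes tested, 3 fell. Cdc6, which loads the ring, had 51.9 and 40.5 CPM with DOX against 82.7 and 72.4 CPM with water, a log2 change of -0.75 ± 0.13 (edgeR adjusted p = 0.0017). Orc1, a subunit of the origin recognition complex, had 107.7 and 116 CPM against 162 and 167 CPM, a change of -0.56 ± 0.10 (edgeR adjusted p = 0.0019). Gmnn, the gene of geminin, which holds CDT1 inactive, fell by 0.63 ± 0.12. The other subunits among the members, Orc2 (-0.15 ± 0.10, edgeR adjusted p = 0.27) and Orc6 (-0.33 ± 0.12, adjusted p = 0.062), did not pass. Orc3, Orc4 and Orc5 are not members and are counted with the further replication genes below. Of the firing kinase, Dbf4 fell by 0.44 ± 0.10, and its catalytic subunit gene Cdc7 had a value of -0.23 ± 0.08 (adjusted p = 0.056).

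6 of the 9 polymerase and primase genes fell, with a median of -0.44. The catalytic subunit gene of polymerase delta, Pold1 (chromosome 7, 44532746 to 44548849, minus strand), had 23.2 and 20.0 CPM with DOX against 37.7 and 39.2 CPM with water, a log2 change of -0.83 ± 0.10 (edgeR adjusted p = 0.0002). Its partner Pold2 fell by 0.81 ± 0.12, and Pole, the catalytic subunit gene of the leading-strand polymerase epsilon, by 0.65 ± 0.12. In the polymerase alpha and primase complex, which lays the primers, Prim1 fell by 0.56 ± 0.10 and Pola2 by 0.44 ± 0.08. Prim2, its large primase subunit, had 149.8 and 237.5 CPM with DOX against 127.7 and 206.5 CPM with water, and Pola1 had 274 and 431 CPM against 351 and 544 CPM. In both genes the replicates of a group lay further apart than the group means, and neither passed (0.21 ± 0.24, edgeR adjusted p = 0.51, and -0.34 ± 0.24, adjusted p = 0.28). Pold3 had a value of -0.22 ± 0.10 (adjusted p = 0.11).

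At the clamp and on the lagging strand 8 of 11 genes fell, with a median of -0.68. Pcna (chromosome 2, 132249162 to 132253314, minus strand) had 64.4 and 45.5 CPM with DOX against 141 and 97.4 CPM with water, a log2 change of -1.12 ± 0.19 (edgeR adjusted p = 0.0021). The higher DOX library stayed below the lower water library. Of the clamp loader, Rfc5 fell by 0.81 ± 0.12, Rfc4 by 0.77 ± 0.12, Rfc3 by 0.60 ± 0.14 and Rfc2 by 0.53 ± 0.09, while Rfc1, its large subunit, had 104.6 and 123 CPM against 112 and 122 CPM. The value of Rfc1 was -0.04 ± 0.11 (edgeR adjusted p = 0.80). Of the single-strand binding protein RPA, Rpa2 fell by 0.81 ± 0.11, whereas Rpa1 had 195.5 and 226 CPM against 165 and 199.9 CPM, a value of 0.21 ± 0.12 (adjusted p = 0.21), and Rpa3 one of -0.40 ± 0.19 (adjusted p = 0.12). Fen1, which trims flaps, fell by 0.73 ± 0.14 and Lig1, which seals nicks, by 0.68 ± 0.10.

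The 4 genes that package and guard the fork all fell, with a median of -0.39. Chaf1b, a subunit of the chromatin assembly factor CAF-1, had 38.2 and 37.7 CPM with DOX against 62.3 and 58.5 CPM with water, a log2 change of -0.67 ± 0.09 (edgeR adjusted p = 0.00037). Chaf1a fell by 0.39 ± 0.09, Timeless by 0.38 ± 0.09 and its partner Tipin by 0.35 ± 0.10. No test compared one role with another. By promoter, 9 of 11 tested genes with the E2F-type letters fell (median -0.60) and 21 of 27 without them (median -0.56).

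The number of members called lower at 24 h of DOX was 31 to 43 under the 8 other settings of the fit and 34 to 40 with any 1 library left out, and 0 rose under any of them. The lowest counts were 31 with total counts alone and 32 with only the groups compared, against 38. Of the members not called, Pola1, Prim2, Rfc1, Rpa1, Orc2 and Pold3 are among the longest, at 39455 (Pold3) to 327389 bases (Pola1). Cdc7, Orc6 and Rpa3 are shorter, at 20111, 8647 and 3238 bases, and Pole, at 51169 bases, fell. With the length trend removed 43 were called lower, where 8227 of all genes were called in either direction. The part of length in single genes was not tested. Pooled over the group, primitive endoderm markers summed to 52.5 CPM with DOX and 11.6 CPM with water at 24 h. Trophectoderm markers summed to 63.4 CPM with DOX and 21.7 CPM with water, and fibroblast markers to 27.4 CPM with DOX and 15.9 CPM with water. ESC markers summed to 738 CPM with DOX and 1969 CPM with water. Across the OCT4-tetOff groups Gata3 ran from 10.5 to 52.3 CPM, Eomes from 6.63 to 12.2 CPM and Cdx2 from 3.16 to 4.71 CPM, with Elf5 and Hand1 at or below 0.779 CPM. Of the fibroblast markers Pdgfrb ran from 11.2 to 22.1 CPM and Thy1 from 2.07 to 5.47 CPM, with Col1a1, Col1a2, Col3a1 and Postn at or below 0.741 CPM. The part of the shift in these sums in the replication genes was not tested.

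**Figure D2:**
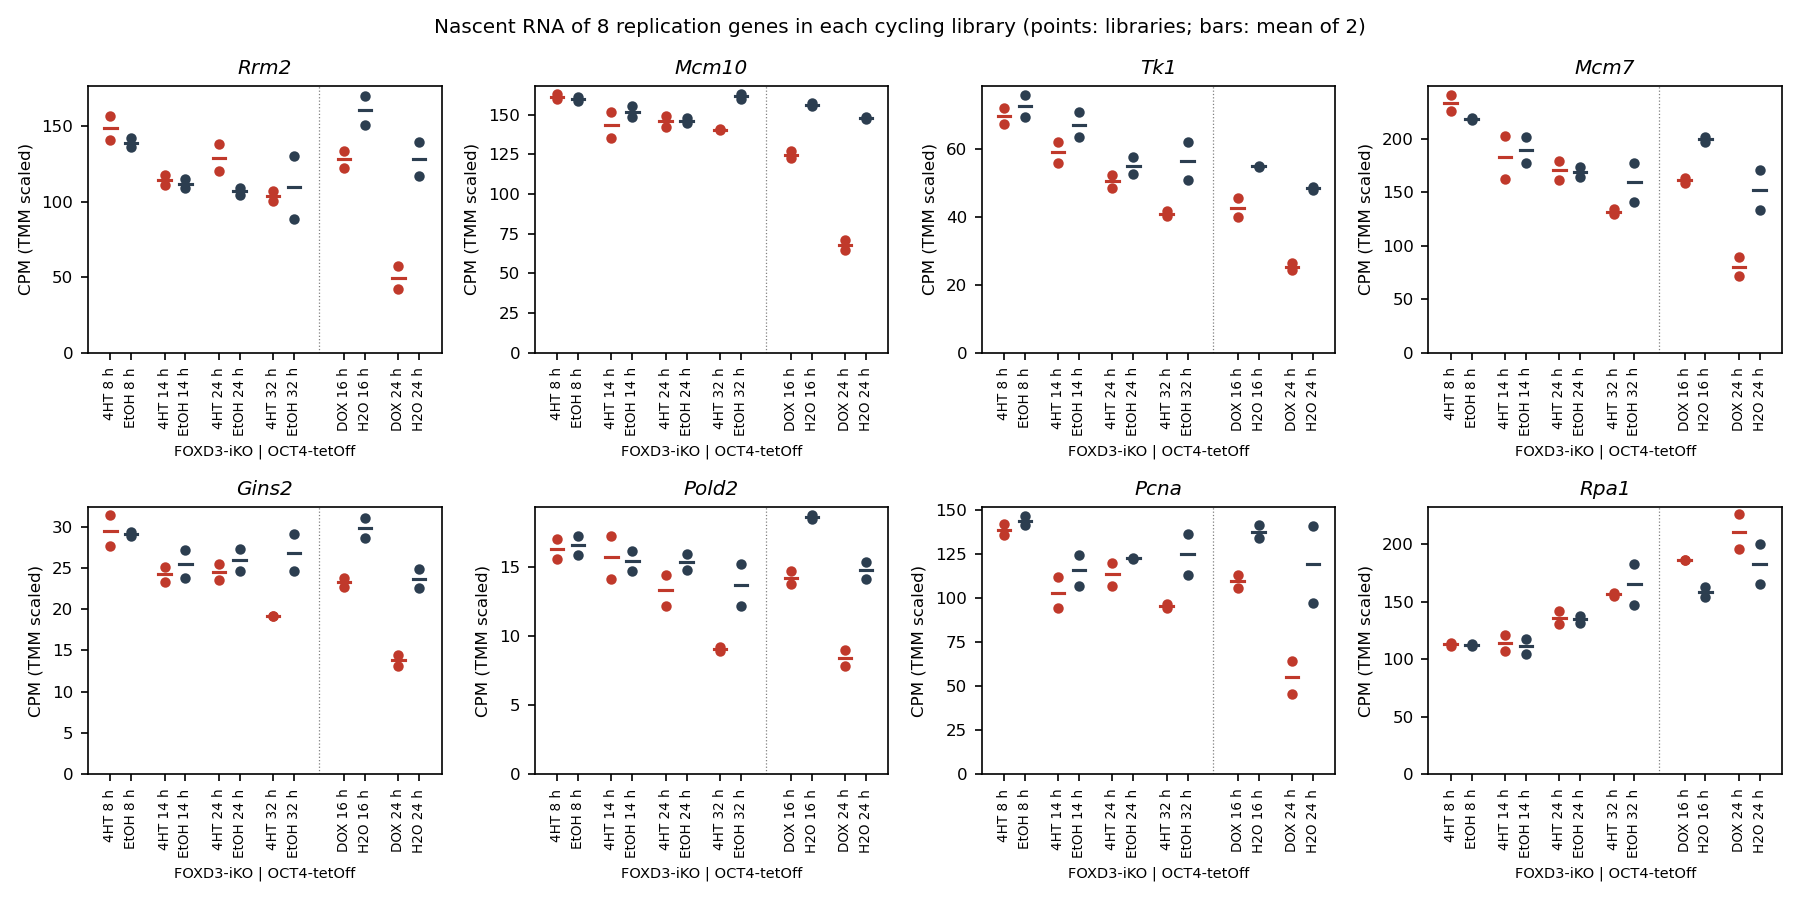
CPM after TMM scaling (y axis, from 0) of 8 replication genes in each cycling library (points), with the mean of the 2 libraries of a group as a bar; red is 4HT or DOX and dark blue is ethanol or water. For Rrm2, Mcm10, Tk1, Mcm7, Gins2, Pold2 and Pcna both points of DOX 24 h lie below both points of water 24 h, and for Rpa1 they overlap.

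At 16 h of DOX the changes were smaller. 7 genes fell and 0 rose, where 8.91% of all genes fell and 7.94% rose, with a median of -0.18 against -0.00 over all genes. They were Chaf1b (-0.42 ± 0.09, edgeR adjusted p = 0.0091), Pold1 (-0.39 ± 0.10, adjusted p = 0.021), Pold2 (-0.39 ± 0.11, adjusted p = 0.044), Tk1 (-0.36 ± 0.09, adjusted p = 0.028), Gins2 (-0.36 ± 0.10, adjusted p = 0.041), Mcm10 (-0.33 ± 0.09, adjusted p = 0.042) and Pola2 (-0.31 ± 0.08, adjusted p = 0.034). Chaf1b had 48.5 and 45.7 CPM with DOX against 61.8 and 64.6 CPM with water. In 38 of 47 genes both DOX libraries lay below both water libraries, against 34.2% of all genes. Cdc7, Rpa1 and Rpa3 lay the other way, as 34.1% of all genes did, with 186.5 and 186.6 CPM against 163 and 154 CPM for Rpa1. Marker sums moved at 16 h as well. ESC markers summed to 1122 CPM with DOX and 2133 CPM with water, primitive endoderm markers to 25.6 CPM with DOX and 9.88 CPM with water, trophectoderm markers to 50.2 CPM with DOX and 24.7 CPM with water, and fibroblast markers to 26.6 CPM with DOX and 14.2 CPM with water. Their part in the result was not tested. All genes called at 16 h numbered 2986 as reported, 3411 with total counts alone and 6506 in a fit of the 4 libraries alone. Without any 1 of the 4 libraries of 16 h no member was called, with total counts alone 0 fell, and a fit of the 4 libraries alone called 26 lower and 2 higher.

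The difference between the responses at 24 h and 16 h was tested directly. It was negative for 46 of 47 members, with a median of -0.38 against 0.00 over all genes. At an unadjusted edgeR p under 0.05 there were 31 members, and the share of all genes there is not given. edgeR called 0 members and 0 of all 17713 genes, and DESeq2 called 2 members. With the length trend removed 22 were called, all lower, where 634 of all genes were called in either direction.

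Of 39 further replication genes 20 fell and 1 rose at 24 h of DOX, with a median of -0.36, and 9 of the 39 values were positive. The largest changes by p were of Chtf18 (-1.27 ± 0.11, edgeR adjusted p = 2.8e-05) and Dscc1 (-0.98 ± 0.11, adjusted p = 0.00018), subunits of the alternative clamp loader, and of Pole4, an accessory subunit of polymerase epsilon (-1.16 ± 0.10, adjusted p = 3e-05). Top1, a topoisomerase gene, rose by 0.49 ± 0.12 (edgeR adjusted p = 0.012). Of 19 regulators of the G1/S step 13 fell, among them E2f2 (-1.09 ± 0.08) and E2f1 (-0.76 ± 0.08), and 2 rose. The 2 were Cdkn1a, the gene of the cyclin-dependent kinase inhibitor p21 (1.33 ± 0.12, edgeR adjusted p = 3.9e-05), and Rb1, the gene of the E2F-binding retinoblastoma protein (0.70 ± 0.14, adjusted p = 0.0051). All 12 genes of G2 and mitosis fell too, with a median of -0.44, among them Cdk1 (-0.72 ± 0.11, edgeR adjusted p = 0.001). At 16 h, 0 of these 12 were called (edgeR, 0 also at an unadjusted p under 0.05), with a median of 0.01, and Cdkn1a stood at 1.04 ± 0.12 (adjusted p = 0.00036).

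With loss of FOXD3, 0 of the 47 genes were called at 8, 14 and 24 h by edgeR or by DESeq2, where 0.0107%, 0.016% and 0.481% of 18707 genes were, and at an unadjusted p under 0.05 there were 0, 0 and 2. The medians were 0.01, -0.04 and -0.01. At 24 h Mcm10 had 143 and 149 CPM with 4HT against 148 and 145 CPM with ethanol, a log2 fold change of -0.00 ± 0.09, and Mcm5 stood at -0.01 ± 0.09. Rrm2 had 120 and 138 CPM against 104 and 109 CPM, a value of 0.28 ± 0.14 (edgeR adjusted p = 0.66), with both 4HT libraries above both ethanol libraries. 9 members lay wholly below and 7 wholly above, against 22.8% and 19.7% of all genes.

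At 32 h of 4HT 6 members fell and 0 rose, where 4.59% of all genes fell and 4.88% rose. The median was -0.17, against -0.05 over all genes, and 44 of 47 values were negative. Pold2 (chromosome 11, 5872180 to 5878292, minus strand) had 9.26 and 8.95 CPM with 4HT against 12.2 and 15.3 CPM with ethanol, a log2 change of -0.59 ± 0.14 (edgeR adjusted p = 0.016). Gins2 (chromosome 8, 120578633 to 120589304, minus strand) had 19.2 and 19.1 CPM against 24.7 and 29.1 CPM, a change of -0.49 ± 0.11 (edgeR adjusted p = 0.012). Tk1 had 41.8 and 40.1 CPM against 50.8 and 62.1 CPM, a change of -0.46 ± 0.11 (edgeR adjusted p = 0.017). In each the 4HT libraries lay close together and the ethanol libraries apart. Gmnn fell by 0.32 ± 0.08, Lig1 by 0.29 ± 0.08 and Chaf1b by 0.27 ± 0.07. All 6 were also called at 24 h of DOX, as were 38 of all 47 members, and in 34 of the 47 members both 4HT libraries lay below both ethanol libraries, against 27.1% of all genes. Of 4 primitive endoderm markers tested, Gata6 (1.08 ± 0.14, edgeR adjusted p = 0.00038) and Dab2 (0.68 ± 0.14, adjusted p = 0.0088) rose. Gata4 (-0.08 ± 0.14, adjusted p = 0.80) and Sox17 (-0.30 ± 0.38, adjusted p = 0.74) lay below 0 and did not pass. The 5 markers summed to 36.3 CPM with 4HT and 24.0 CPM with ethanol. The part of this shift in the replication genes was not tested.

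The count at 32 h moved with each of its 4 libraries. Ethanol replicate 1 lay below replicate 2 for Pcna (113 and 137 CPM), Mcm7 (142 and 178 CPM) and Rrm2 (88.6 and 131 CPM), and above it for the long genes Pola1 (945 and 466 CPM) and Prim2 (205 and 124 CPM). Gm26917 and Gm42418, annotated genes that collect ribosomal RNA reads, took 13.9 and 12.5% of the counts in the 4HT libraries, against 14.3% in ethanol replicate 1 and 28% in ethanol replicate 2. Without ethanol replicate 1, 20 members fell, without ethanol replicate 2, 3 fell, and without either 4HT library none was called. With total counts alone the median of all genes was 0.12, that of the members -0.00, and 0 were called. A fit of the 4 libraries alone called 0, and with the length trend removed 10 fell. All genes called in these settings numbered 194 and 2592, against 1771 as reported.

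The response at 32 h was set against that at 24 h. The difference had a median of -0.17 over the members and -0.02 over all genes, and 43 of 47 values were negative. edgeR and DESeq2 called 0 members, edgeR called 0 of all genes, and 5 members had an unadjusted p under 0.05. Of the other lists, 0 of 39 further replication genes and 0 of 12 genes of G2 and mitosis were called at 32 h by edgeR, with 9 and 1 at an unadjusted p under 0.05. Among the G1/S regulators Rb1 (0.93 ± 0.18, edgeR adjusted p = 0.0047) and Rbl2, another member of its family (0.62 ± 0.09, adjusted p = 0.001), rose. E2f2 (-0.56 ± 0.09, edgeR adjusted p = 0.0013) and Ccne1, the gene of cyclin E1 (-0.36 ± 0.08, adjusted p = 0.011), fell.

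Loss of FOXD3 and loss of OCT4 were compared at 24 h in 1 fit of their 8 libraries. The 2 responses differed at 27 of the 47 members, and in all 27 the FOXD3 response was the higher, where it was higher at 9.08% of 18437 genes. The median difference was 0.59, against 0.02 over all genes. The largest was that of Rrm2, whose response to 4HT exceeded that to DOX by 1.65 ± 0.23 on the log2 scale (edgeR adjusted p = 0.00092), followed by Mcm10 (1.12 ± 0.15, adjusted p = 0.00089) and Pcna (1.01 ± 0.27, adjusted p = 0.031). By role they were 9 of 12 helicase genes, 7 of 11 clamp and lagging-strand genes, 5 of 9 polymerase and primase genes, 2 of 5 licensing genes, 2 of 4 nucleotide supply genes, 2 of 4 genes of chromatin assembly and fork protection and 0 of 2 kinase genes. Rfc1 (-0.03 ± 0.17), Rpa1 (-0.19 ± 0.19) and Prim2 (-0.32 ± 0.36) stood below 0 and did not pass. Foxd3 itself fell in the OCT4-tetOff cells, to 2.36 ± 0.682 CPM with DOX, against 20.7 ± 0.714 CPM with water at 24 h (SD, n = 2 each), a change of -3.12 ± 0.20 (SE, edgeR adjusted p = 5.62e-06). In FOXD3-iKO cells at 24 h it averaged 3.34 ± 0.0406 CPM with 4HT and 9.22 ± 1.09 CPM with ethanol. Pou5f1 and Foxd3 were both lower in the DOX cells. Cell line and treatment differ together with the factor lost and cannot be told apart.

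Of the 8 libraries, 6 moved this count by over 1.5 times when left out. It was 4 without FOXD3-iKO ethanol replicate 1, 7 without ethanol replicate 2, 15 without 4HT replicate 1 and 6 without 4HT replicate 2. It was 12 without OCT4-tetOff water replicate 1 and 17 without DOX replicate 2, and reached 34 without DOX replicate 1. Rrm2, Mcm10 and Tk1 were called in all of these and with DESeq2, and all members called in any of them were higher.

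**Figure D3:**
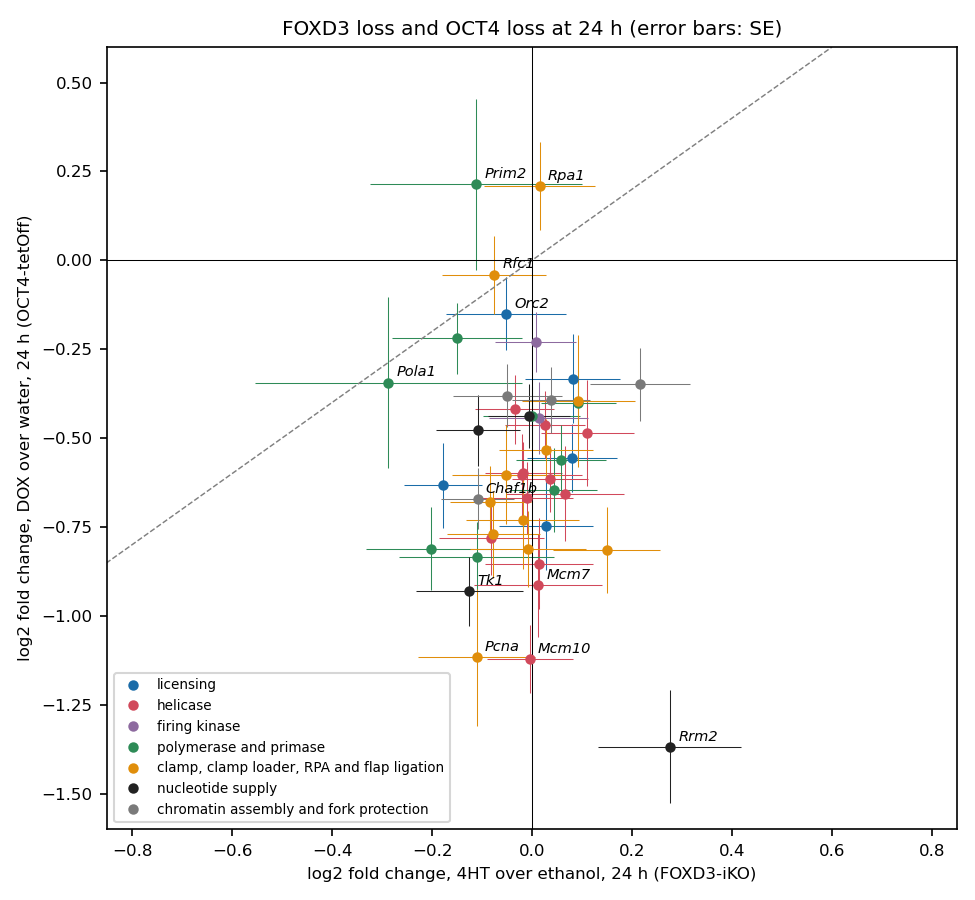
Log2 fold change at 24 h of 4HT over ethanol in FOXD3-iKO cells (x axis) and of DOX over water in OCT4-tetOff cells (y axis) for the 47 tested replication genes, coloured by role, with SE as bars; the dashed line marks equal values. Rrm2 lies at 0.28 and -1.37 and Mcm10 at -0.00 and -1.12, and most genes lie below the dashed line.

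In synchronized cells, 1 effect of 4HT over all 6 release times was fitted with 12 libraries in each arm. The fit took the 12 as independent. Deviations of same-numbered samples, however, correlated over 0.1 in 46 of 66 pairs of groups and under -0.1 in 3. The p-values of this fit may therefore be too small. Of the 47 genes 17 were called, 7 higher and 10 lower, close to the 37% of all genes called (18.6% higher and 18.4% lower), and the median was -0.03 against -0.01 over all genes. Gins2 fell most. It had from 11.3 to 14.5 CPM (median 13.2) with 4HT and from 12.2 to 26.7 CPM (median 19.1) with ethanol, a log2 change of -0.55 ± 0.08 (edgeR adjusted p = 2.6e-05). The ranges overlap at their ends. Pcna had from 53.0 to 90.9 CPM (median 64.9) against 74.7 to 97.8 CPM (median 86.5), a change of -0.37 ± 0.05 (edgeR adjusted p = 2.4e-05). Prim2 rose most, with 219.5 to 305 CPM (median 266) against 132.6 to 249 CPM (median 173), a change of 0.55 ± 0.10 (edgeR adjusted p = 0.0002).

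By role, in the GINS complex Gins3 fell by 0.28 ± 0.05 and Gins4 by 0.16 ± 0.05, while Gins1 stood at 0.01 ± 0.05 (edgeR adjusted p = 0.90), and 0 of the 6 MCM ring genes and neither Mcm10 nor Cdc45 was called. Of the clamp genes Rpa3 (-0.34 ± 0.09), Rfc3 (-0.28 ± 0.06), Rfc4 (-0.27 ± 0.07) and Fen1 (-0.19 ± 0.06) fell, and Rpa1 rose by 0.26 ± 0.04 (edgeR adjusted p = 6.1e-05). Among the polymerases Pole rose by 0.28 ± 0.06 and Pola2 by 0.21 ± 0.07. Orc1 (0.17 ± 0.04), Orc2 (0.11 ± 0.04) and Rfc1 (0.12 ± 0.04) were called higher, but with total counts alone their values were -0.04, -0.09 and -0.09. Gmnn (-0.22 ± 0.05) and Tyms (-0.13 ± 0.05) fell, and 0 of 4 genes of chromatin assembly and fork protection were called. Under TMM scaling the direction of these calls divided by gene length. Every member called higher was at least 23664 bases long (Pola2), and every member called lower at most 15416 bases (Tyms). With the length trend removed 5 were lower and 6 higher, where 4619 of all genes were called. The part of length in single genes was not tested. With total counts alone, under which the median of all genes was -0.21, 34 members were lower and 1 higher.

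At single release times few members passed. At 1 h Gins2 fell by 0.64 ± 0.15 (edgeR adjusted p = 0.041) and Prim2 rose by 0.87 ± 0.22 (adjusted p = 0.045), where 2.4% of all genes were called. At 5 h, with 2.09% of all genes called, Gins2 had 13.7 and 12.2 CPM with 4HT against 26.7 and 23.5 CPM with ethanol, a log2 change of -0.95 ± 0.15 (edgeR adjusted p = 0.0044). Pcna had 60.0 and 65.8 CPM against 79.2 and 96.8 CPM, a change of -0.48 ± 0.11 (edgeR adjusted p = 0.034). The groups of both genes were apart. Prim2 also rose at 3 h (0.93 ± 0.22, edgeR adjusted p = 0.036) and Pcna fell at 4 h (-0.59 ± 0.11, adjusted p = 0.021), with 3.49% and 0.519% of all genes called.

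At 5 h against 0 h, 12 of 12 genes of G2 and mitosis rose with 4HT (median 1.10) and 11 of 12 with ethanol (median 1.18). Within the 4HT arm 13 of 47 replication genes changed over the 6 times, where 15.4% of all genes did, and within the ethanol arm 6, where 19.4% did. The 13 were Orc6, Cdc6, Pcna, Rfc3, Rpa2, Fen1, Lig1, Rrm1, Rrm2, Tyms, Tk1, Chaf1b and Tipin, and each had its largest difference from 0 h below 0. The 6 were Gins2, Pole2 and Mcm2, with their largest difference above 0, and Orc6, Pold3 and Gins1, with theirs below 0.

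The courses in the 2 arms are given for Rrm2, a nucleotide supply gene, and for Gins2. Rrm2 had 98.1 and 86.6, 88.3 and 95.5, 93.1 and 94.4, 78.0 and 70.6, 73.4 and 74.5, and 67.9 and 60.1 CPM at 0, 1, 2, 3, 4 and 5 h with 4HT (edgeR adjusted p = 0.044). With ethanol it had 67.4 and 67.0, 94.6 and 107, 79.3 and 90.7, 86.2 and 66.3, 83.3 and 65.6, and 95.4 and 78.8 CPM (edgeR adjusted p = 0.059). With 4HT the highest mean of Rrm2 was at 2 h (93.7 CPM) and the lowest at 5 h (64.0 CPM). With ethanol the highest mean was at 1 h (101 CPM) and the lowest at 0 h (67.2 CPM). In both arms the highest mean was at 1 h for Rrm1 and Tk1 and at 0 h for Tyms. All 4 nucleotide supply genes changed over release with 4HT and 0 of 4 with ethanol (edgeR, 2 of 4 at an unadjusted p under 0.05). Passing in 1 arm alone is not a difference between arms, which is tested below. Gins2 stayed between 11.3 and 14.5 CPM in every 4HT library, while with ethanol it had 15.1 and 12.2 CPM at 0 h, 17.7 and 20.4 at 1 h, 19.7 and 17.1 at 2 h, 20.8 and 16.9 at 3 h, 23.2 and 18.6 at 4 h and 26.7 and 23.5 CPM at 5 h. At 5 h against 0 h, 16 members fell with 4HT and 0 rose, where 11.5% of all genes fell. Gm26917 and Gm42418 took 7.20 and 5.48% of the counts at 5 h and 19.7 and 15.6% at 0 h with 4HT, and 24.4 and 3.83% at 5 h and 4.92 and 3.41% at 0 h with ethanol, and their part in these counts was not tested. With ethanol 7 rose and 2 fell, where 11.8% rose and 9.56% fell, and 5 of the 7 were helicase genes, Gins2 (0.88 ± 0.15), Mcm2 (0.59 ± 0.11), Mcm7 (0.53 ± 0.13), Mcm3 (0.39 ± 0.10) and Mcm10 (0.27 ± 0.08).

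The difference between the 2 courses was tested itself and 0 members passed. edgeR and DESeq2 called 0 members, edgeR called 0 of all 17739 genes, and 5 members had an unadjusted p under 0.05. These were Timeless, Rrm2, Gins2, Mcm10 and Mcm2, each with an adjusted p of 0.76. The counts within an arm moved with single libraries, from 3 to 16 with 4HT, lowest without 4HT 0 h replicate 1, and from 0 to 13 with ethanol, lowest without ethanol 0 h replicate 2. 18 and 16 of the 24 libraries moved the 2 counts by over 1.5 times. Of the other lists, 4HT over all release times raised 8 and lowered 2 of 38 further replication genes tested, beside 18.6% and 18.4% of all genes, with Atad5, whose product unloads the clamp, at 0.46 ± 0.05 (edgeR adjusted p = 7.5e-07). E2f2 fell by 0.37 ± 0.07 (edgeR adjusted p = 0.00038) and Cdk1 by 0.21 ± 0.04 (adjusted p = 0.00097).

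**Figure D4:**
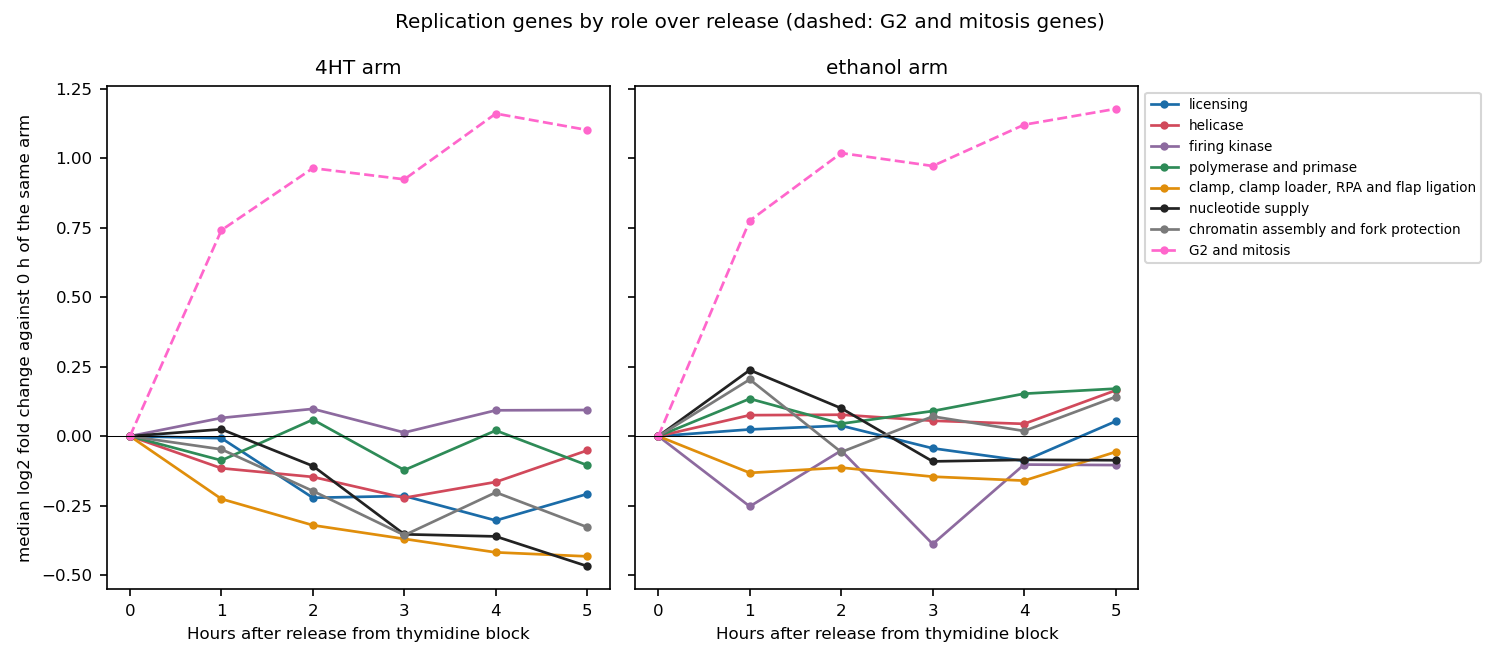
Median log2 fold change against 0 h of the same arm (y axis) by hour after release (x axis), for the replication genes of each role (solid) and the 12 genes of G2 and mitosis (dashed), with 4HT in the left panel and ethanol in the right. The dashed line reaches 1.10 with 4HT and 1.18 with ethanol at 5 h, and the nucleotide supply genes stand at -0.47 with 4HT and -0.09 with ethanol.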

How the data were processed

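Newly made RNA labelled with 4SU was sequenced from 48 libraries in 24 groups of 2. The deposited values are raw read counts per gene, which the authors made with STAR and featureCounts on mm10 per the submitters' processing notes. Versions and strand setting: not given in the sources used here. The counted interval spans the whole gene, introns included, so long genes collect more counts.

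Counts were scaled by TMM and tested by the quasi-likelihood method of edgeR (version 4.0.16, under R 4.3.3) with 1 mean for each group, after filterByExpr at its minimum count of 10, separately in each of the 3 tables and in 1 joint fit at 24 h. P-values were adjusted by Benjamini-Hochberg over all genes tested, with a threshold of 0.05. The fits were also run on simulated counts with known changes, drawn independently for each library. These held no length trend, no shift in ribosomal RNA reads and no correlation of same-numbered samples, so they cannot show how the fits behave under these. The SE was derived from the log2 fold change and its F statistic. For counts of members at an unadjusted p under 0.05 the share of all genes is not given. Alternatives were RLE factors, total counts alone, DESeq2 1.42.0, no filter, a replicate block, removal of the length trend (span 0.3), only the groups compared and leaving out each library. Total counts outside Gm26917 and Gm42418 were added after seeing the data. The members, their roles and the other gene lists were chosen with earlier results of these data known. Named members are those with the smallest p, members called in the opposite direction and the other subunits of their complexes, and of each other list up to 4 called genes per direction. A count of 3 in a library corresponds to 0.0987 to 0.377 CPM.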

Additional observations from a re-analysis of the deposited data

Results flagged for a closer look

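The responses to loss of FOXD3 and loss of OCT4 at 24 h differed, by the test of the difference itself, at 27 members, and in each the log2 response to 4HT was the higher. Among helicase genes the difference was 1.12 for Mcm10, 0.93 for Mcm7, 0.87 for Mcm3, 0.73 for Mcm4, 0.70 for Gins2, 0.66 for Cdc45, 0.66 for Mcm5, 0.59 for Gins1 and 0.59 for Mcm2. Of the clamp and lagging-strand genes it was 1.01 for Pcna, 0.97 for Rfc5, 0.81 for Rpa2, 0.72 for Fen1, 0.70 for Rfc4, 0.60 for Lig1 and 0.57 for Rfc2. Of the polymerase and primase genes it was 0.73 for Pold1, 0.69 for Pole, 0.63 for Prim1, 0.61 for Pold2 and 0.50 for Pole2. Nucleotide supply genes stood at 1.65 for Rrm2 and 0.81 for Tk1, licensing genes at 0.78 for Cdc6 and 0.64 for Orc1, and Tipin and Chaf1b at 0.57 each.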

How the results depend on the processing

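Of 3916 recomputed values of 204 gene results, 3270 kept direction and call, 628 kept direction but no longer passed, and 18 turned round. The cause was not tested. With total counts alone 0 members were called at 4HT 32 h, 0 at DOX 16 h, 1 for DOX 24 h minus 16 h, 35 for 4HT in synchronized cells, 0 over release in ethanol and 3 in 4HT. Total counts outside Gm26917 and Gm42418 gave 1 at 4HT 32 h, 1 at DOX 16 h, 26 in synchronized cells and 2 over release in ethanol. DESeq2 gave 4 at DOX 16 h, 2 for DOX 24 h minus 16 h, 12 over release in ethanol and 21 in 4HT. Without the filter there were 3 at 4HT 32 h, 4 at DOX 16 h, 7 for DOX 24 h minus 16 h, 6 over release in 4HT and 1 for the difference between arms. With the length trend removed there were 10 at 4HT 32 h, 23 at DOX 16 h, 22 for DOX 24 h minus 16 h, 11 in synchronized cells and 11 over release in ethanol. All genes called there numbered 2592, 5351, 634, 4619 and 3619. Only the groups compared gave 1 at 4HT 8 h, 0 at 4HT 32 h and 28 at DOX 16 h, where 76, 194 and 6506 of all genes were called. For DOX 24 h minus 16 h the groups compared are the whole table.

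Labels do not pair the samples. Deviations of same-numbered samples correlated at -0.581 to 0.426, -0.188 to 0.574 and -0.288 to 0.632 in the cycling, OCT4-tetOff and synchronized tables. The medians were -0.0316, 0.0164 and 0.188. Over 0.1 lay 7 of 28, 3 of 6 and 46 of 66 pairs of groups, and under -0.1 lay 7, 3 and 3. The replicate block gave 42 for FOXD3 minus OCT4 loss (41 higher and 1 lower), 13 over release in ethanol and 21 in 4HT. All genes called with the block numbered 8019, 6298 and 4272, against 3039, 3441 and 2727 as reported. Leaving out 1 library gave 0 to 0 at 4HT 8, 14 and 24 h, 0 to 20 at 32 h, 0 to 3 for 32 h minus 24 h, 0 to 9 at DOX 16 h, 34 to 40 at DOX 24 h, 0 to 4 for DOX 24 h minus 16 h, 4 to 34 for FOXD3 minus OCT4 loss, 14 to 20 in synchronized cells, 0 to 13 over release in ethanol, 3 to 16 in 4HT and 0 to 0 for their difference.

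The 18 that turned round are effects of 4HT in synchronized cells. With total counts alone the log2 values were -0.0935 for Orc2, -0.0416 for Orc1, -0.0889 for Rfc1, -0.0338 for Ticrr, -0.108 for Mcmbp, -0.0552 for Topbp1, -0.0428 for E2f3, -0.0635 for Wdhd1, -0.0532 for Supt16 and -0.0494 for Kif11. With the length trend removed they were -0.0395 for Rfc1 and -0.0081 for E2f3. With total counts outside Gm26917 and Gm42418 they were -0.0443 for Orc2, -0.0414 for Rfc1, -0.0615 for Mcmbp, -0.0068 for Topbp1, -0.0145 for Wdhd1 and -0.0029 for Supt16.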
